A study of Rattus norvegicus with 24 samples.

Results

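The genes described here are 33 that copy DNA in S phase, measured in rat liver after a single dose of ANIT (alpha-naphthylisothiocyanate), a toxicant of the bile duct lining that also harms nearby hepatocytes. They were chosen by name and function, by a rule that uses no measured value but was set when earlier results of these data were known. Each was represented by the probe set with the highest mean among those naming that gene alone. All 33 of the listed genes had such a probe set, out of 13438 genes on the array. RNA came from the livers of 24 male Sprague Dawley rats, 8 weeks old, 1 rat per one-colour array, in 4 groups of 6. Rats received ANIT at 50 mg/kg in corn oil, or corn oil alone at 10 ml/kg, into the stomach, and were killed with CO2 at 24 h, which the study calls peak injury, or at 120 h, its resolution. All 4 groups, vehicle included, were fasted for about 18 h before necropsy and were injected with 100 mg/kg of bromodeoxyuridine (BrdU), a label for newly made DNA, about 2 h before it. The values below are RNA levels, and no BrdU count was analysed here. The comparisons ask whether the genes of DNA copying differed from vehicle at injury and at resolution, and whether the effect differed between those times.

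DNA replication begins when the MCM helicase is loaded onto origins in G1 and is switched on at the start of S phase, after which polymerases, a sliding clamp and a nucleotide supply carry the fork forward. Most of the genes concerned are targets of E2F factors, which are held back by the retinoblastoma proteins in resting cells. Hepatocytes of adult rodents are mostly quiescent and re-enter the cycle after injury or loss of liver mass, when these genes usually rise together before DNA synthesis.

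The upstream sequences show which of these genes carry the textbook E2F site close to the start. RefSeq's promoter table, on build GRCr8, held 29 of the 33 genes and lacked Mcm4, Rrm2, Ccne2 and E2f1. The 250 bases before the annotated start were searched on both strands for the E2F letters TTTCGCGC, TTTCCCGC, TTTGGCGC and TTTGCCGC, where a match on one strand may overlap a match on the other. Taking the first entry of each gene, 7 of 29 held at least 1 match (24.1%), against 330 of 11057 measured genes (2.98%) and 580 of all 33465 entries (1.73%). The 7 were Mcm2, Mcm5, Mcm6, Mcm7, Gins1, Pola1 and Tyms, so 4 of them were subunits of the helicase. The shorter CCAAT box was present in 16 of 29 (55.2%), against 35.1% of measured genes. The windows of 3 genes are printed, picked in part by their results: Mcm2, which fell at 24 h and holds 2 overlapping matches on opposite strands, Mcm5, its partner in the helicase with 3 matches, which was not called, and Mcm10, which was lower at both times and holds 0. Of the 7 genes with a match, Mcm2 alone was called in any comparison with vehicle. A relation between matches and response was not tested. Each is written 5′ to 3′ on the strand of the gene, with E2F matches in capitals. A match describes letters only.
Mcm2, chr4:122918095-122918344, minus strand: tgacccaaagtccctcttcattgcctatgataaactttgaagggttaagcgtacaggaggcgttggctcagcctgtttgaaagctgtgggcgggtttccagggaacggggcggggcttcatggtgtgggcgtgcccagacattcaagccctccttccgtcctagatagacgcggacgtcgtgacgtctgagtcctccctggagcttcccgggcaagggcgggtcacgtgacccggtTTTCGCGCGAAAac
Mcm5, chr19:13488563-13488812, plus strand: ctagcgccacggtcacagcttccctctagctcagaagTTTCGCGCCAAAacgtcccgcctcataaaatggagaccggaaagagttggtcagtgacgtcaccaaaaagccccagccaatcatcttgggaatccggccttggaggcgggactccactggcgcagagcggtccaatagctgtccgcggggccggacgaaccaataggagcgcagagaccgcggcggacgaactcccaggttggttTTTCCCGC
Mcm10, chr17:78175137-78175386, plus strand: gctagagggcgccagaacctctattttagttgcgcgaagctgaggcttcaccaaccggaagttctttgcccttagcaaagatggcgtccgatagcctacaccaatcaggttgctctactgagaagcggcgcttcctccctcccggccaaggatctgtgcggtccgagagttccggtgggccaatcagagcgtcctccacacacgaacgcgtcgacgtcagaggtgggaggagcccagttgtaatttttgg

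Uhrf1, also lower at 24 h, had 3 annotated starts in the table. The windows of the first 2 entries held 0 matches, and that of the last held 2 (GCGGGAAA and TTTCGCGC, the first being a match on the opposite strand).

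The tissue and the signal were checked first. The mean level of 9 measured hepatocyte markers of 10 lay between 11.7 and 12.1 (log2) in all 24 rats. Each of the 33 genes had a mean above the highest of 23 background probe sets (2.96), their means ran from 3.95 to 8.28 with a median of 5.44, and the median gene on the array stood at 6.18. Of the 33, 12 were under log2 5. The arrays themselves differed: the spread (SD) of an array's values ran from 1.84 to 2.09, and the 6 arrays with the smallest SD, called narrow here, were replicates 3, 4 and 5 of vehicle at 24 h and replicates 4, 5 and 6 of ANIT at 120 h. No label used here gives a hybridisation batch. The beta-actin control's 3′/5′ ratio, a sign of RNA quality, stood at 24 h at 3.12 ± 0.07 after ANIT and 2.84 ± 0.05 after vehicle (log2, SD, n = 6 each), with no overlap. In whole liver, fewer cells of a type and less RNA per cell cannot be told apart.

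At 24 h, 4 of the 33 genes passed the test (limma with Benjamini-Hochberg adjustment over 13438 genes, adjusted p under 0.05), which is 12.1%, while 18.2% of all genes did. Of all genes 12.9% were called higher and 5.31% lower, and of the 33 genes 1 and 3. The helicase subunit Mcm4 rose, the helicase subunit Mcm2, the origin firing factor Mcm10 and the hemimethylated DNA reader Uhrf1 fell, and 29 were not called. The median log2 difference from vehicle was -0.12, against 0.00 over all genes, and 22 of the 33 values were below 0 (49.3% of all genes). No gene of the 33 had its ANIT rats wholly apart from its vehicle rats, whereas 5.54% of all genes lay wholly above and 2.32% wholly below. The 95% interval of every difference at 24 h lay within a 2-fold change in either direction, and the largest difference was 1.45-fold. The median half-width of the interval was 0.28, without adjustment over genes. Calls used adjusted p, and differences as large as that of Rpa1 (-0.39) were not called. With 6 arrays per group, a gene that was not called is thus not shown to be unchanged.

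**Figure D1:**
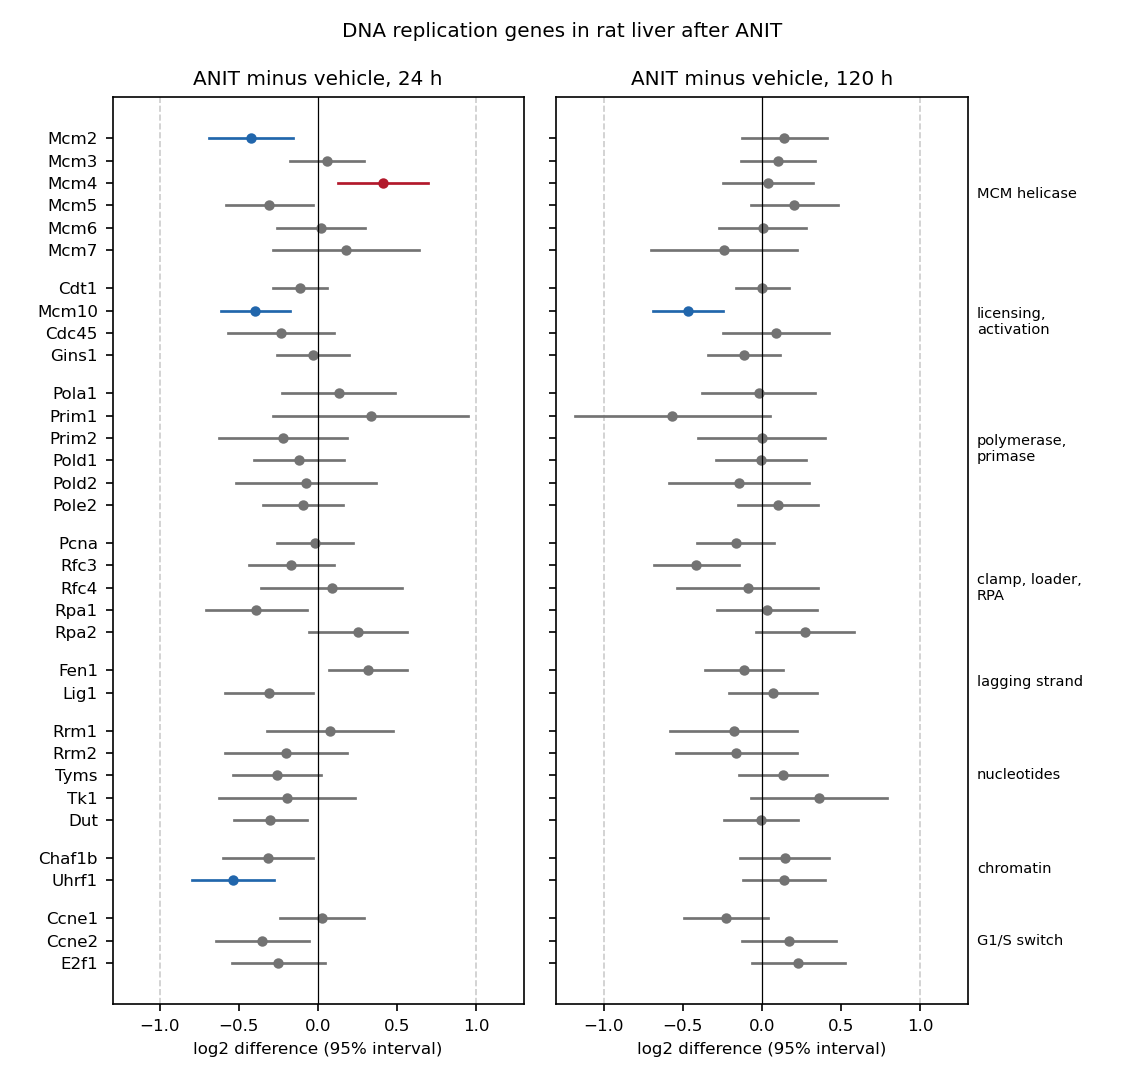
Difference in log2 value between ANIT and vehicle rats for each of the 33 genes at 24 h (left) and 120 h (right), grouped by role, with 6 rats per group. Points are differences of means, lines are 95% intervals, dashed lines mark a 2-fold change, blue and red mark genes called lower and higher, and grey those not called. Mcm2, Mcm10 and Uhrf1 are blue and Mcm4 red at 24 h, and at 120 h Mcm10 alone is coloured.

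The 6 subunits of the MCM helicase, a ring that unwinds the DNA ahead of the fork, did not move as a unit. Mcm2 ran from 5.74 to 6.13 in vehicle rats at 24 h (median 5.91) and from 5.24 to 5.84 in ANIT rats (median 5.46). The groups overlapped in their ranges, since 1 ANIT rat (replicate 2, at 5.84) stood among the vehicle rats. Mcm2 fell by 0.42 ± 0.13 (log2 difference ± SE, n = 6 and 6, limma adjusted p = 0.023), a 1.34-fold difference. Mcm4 went the other way. It ran from 6.90 to 7.70 in vehicle rats (median 7.36) and from 7.43 to 8.30 in ANIT rats (median 7.69), so the ranges overlapped, and 3 ANIT rats (replicates 1, 4 and 6) lay above every vehicle rat. Mcm4 rose by 0.41 ± 0.14 (adjusted p = 0.038). Among the subunits that were not called, Mcm5 had a difference of -0.31 ± 0.13 (adjusted p = 0.11), Mcm7 one of 0.18 ± 0.22, Mcm3 one of 0.06 ± 0.11 and Mcm6 one of 0.02 ± 0.13. The intervals of Mcm3 and Mcm6 ran from -0.18 to 0.29 and from -0.26 to 0.29.

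The calls on Mcm2 and Mcm4 depended on single rats and on the narrow arrays. Without the 6 narrow arrays Mcm2 stood at -0.28 (adjusted p = 0.21) and Mcm4 at 0.27 (adjusted p = 0.32). Over the removal of each of the 24 rats in turn, Mcm2 was no longer called in 5 cases (replicates 3 and 4 of vehicle and 1, 3 and 6 of ANIT at 24 h, adjusted p up to 0.065). Mcm4 was no longer called in 6 (replicates 3, 4 and 6 of vehicle and 1, 4 and 6 of ANIT at 24 h, adjusted p up to 0.13). The sign of both was unchanged in these settings. The count of called genes at 24 h was 2 without replicate 3 or 4 of vehicle or replicate 1 of ANIT. Mcm10 and Uhrf1 were still called there. In each of these fits the called share of all genes was also below the 18.2% with all arrays. The count was 7 without replicate 1 of vehicle, which added Mcm5, Lig1 and Chaf1b, beside 26.3% of all genes. It was 6 without replicate 2 of ANIT, which added Dut and Ccne2, beside 17.9% of all genes.

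Among the genes of origin licensing and helicase activation, all 4 values were below 0 at 24 h, beside 49.3% of all genes. Of the 4, Mcm10 was called. Mcm10, which joins the helicase as the origin fires, ran from 4.68 to 5.18 in vehicle rats (median 4.96) and from 4.30 to 4.71 in ANIT rats (median 4.55). The ranges met only at their ends: 1 ANIT rat, at 4.71, was above the lowest vehicle rat. Mcm10 fell by 0.40 ± 0.11 (adjusted p = 0.010). This call was kept without the narrow arrays (-0.40, adjusted p = 0.039) and in 24 of 24 removals of 1 rat. Cdc45, the helicase's partner in the active complex, had a difference of -0.24 ± 0.16, the licensing factor Cdt1 one of -0.11 ± 0.08 and the GINS subunit Gins1 one of -0.03 ± 0.11, none of them called. Cdc45 was read by 4 probe sets, the chosen one being of a type that can share probes with other transcripts, and the 4 differences ran from -0.48 to 0.06.

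Uhrf1, which recognises hemimethylated DNA behind the fork and brings the maintenance methyltransferase Dnmt1 there, had the largest difference of the 33 at 24 h. It ran from 4.19 to 5.06 in vehicle rats (median 4.66) and from 3.92 to 4.34 in ANIT rats (median 4.13). The ANIT rats were closely grouped and the vehicle rats were spread, and the lowest vehicle rat, replicate 1, lay among the ANIT rats. Uhrf1 fell by 0.54 ± 0.13 (adjusted p = 0.0032) and was called in 24 of 24 removals of 1 rat. Its probe set was dim, with a mean of 4.35, above that of 16.1% of genes. The 3 narrow vehicle arrays gave 4.75 to 5.06 and the other 3 gave 4.19 to 4.57, and without the narrow arrays the difference was -0.27 (adjusted p = 0.16). Chaf1b, a subunit of the chromatin assembly factor that places histones on new DNA, had a difference of -0.32 ± 0.14 (adjusted p = 0.12) and was not called.

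**Figure D2:**
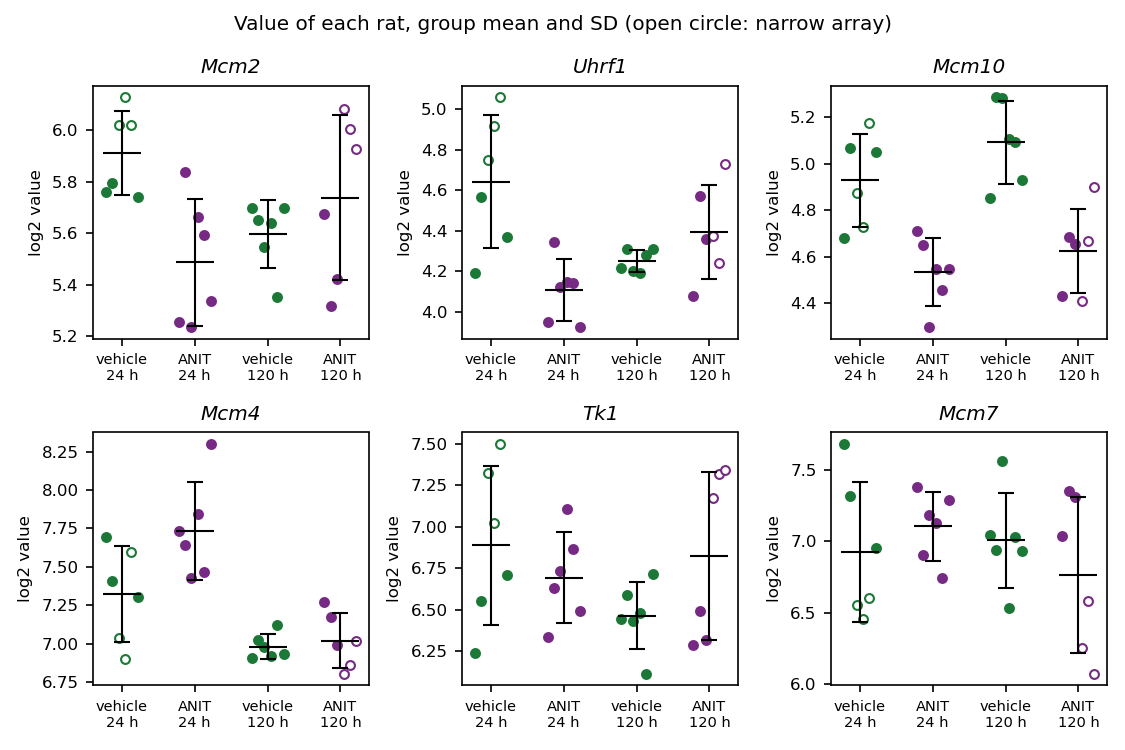
Log2 value of each rat in the 4 groups of 6 for Mcm2, Uhrf1, Mcm10, Mcm4, Tk1 and Mcm7, with vehicle in green and ANIT in purple. Bars show the mean and SD of the group, and open circles mark the 6 narrow arrays. In vehicle at 24 h and ANIT at 120 h the open circles of Mcm2 and Tk1 lie above the filled ones and those of Mcm7 below them, while those of Mcm10 are mixed with them.

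The polymerases and the primase, which start and extend the new strands, had 0 called genes at 24 h among 6, beside 18.2% of all genes. A list this short cannot show a difference from that share. Pola1, the catalytic subunit of the polymerase that extends primers, had a difference of 0.13 ± 0.17, and Pold1, that of the main lagging strand polymerase, one of -0.12 ± 0.14. The accessory subunits Pold2 and Pole2 had -0.07 ± 0.21 and -0.09 ± 0.12. Prim1, the catalytic primase subunit, was the most variable of the 33, with an SD within groups that averaged 0.53, against a median of 0.23 over the 33 and 0.22 over all genes. It ran from 5.06 to 7.06 with vehicle and from 5.37 to 6.76 with ANIT, so the ANIT range lay inside that of vehicle. Its difference was 0.33 ± 0.30 and that of its partner Prim2 was -0.22 ± 0.20.

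The clamp, its loader and the single strand binding proteins also had 0 called genes at 24 h, among 5, beside 18.2% of all genes. Pcna, the sliding clamp and a common marker of proliferation, ran from 8.06 to 8.51 in vehicle rats (median 8.33) and from 8.17 to 8.42 in ANIT rats (median 8.26). Its difference was -0.02 ± 0.12 (adjusted p = 0.93), with an interval from -0.26 to 0.22. The loader subunits Rfc3 and Rfc4 had differences of -0.17 ± 0.13 and 0.09 ± 0.22. Of the single strand binding proteins, Rpa1 had -0.39 ± 0.15 (adjusted p = 0.082) and Rpa2 0.25 ± 0.15 (adjusted p = 0.25).

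On the lagging strand, the flap nuclease Fen1 and the ligase Lig1, which work on the same Okazaki fragments, had values on opposite sides of 0. Fen1 ran from 5.19 to 6.00 in vehicle and from 5.61 to 6.18 in ANIT rats (0.32 ± 0.12, adjusted p = 0.068). Lig1 ran from 6.08 to 6.59 in vehicle and from 5.82 to 6.35 in ANIT rats (-0.31 ± 0.13, adjusted p = 0.12). Both pairs of ranges overlapped and neither gene was called. Without the narrow arrays Fen1 stood at 0.54 and was called higher (adjusted p = 0.0073).

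The 5 genes of nucleotide supply had 0 calls at 24 h, beside 18.2% of all genes. Of the 5 values 4 were below 0 (49.3% of all genes), with a median of -0.20. Dut, which removes dUTP before it can enter DNA, ran from 8.03 to 8.33 in vehicle and from 7.65 to 8.20 in ANIT rats, a difference of -0.30 ± 0.11 (adjusted p = 0.066). Tyms, the thymidylate synthase, had -0.26 ± 0.14, and the ribonucleotide reductase subunits Rrm1 and Rrm2 had 0.08 ± 0.19 and -0.20 ± 0.19. Tk1, the salvage thymidine kinase of S phase, had -0.20 ± 0.21 by its brightest probe set, and its other 2 probe sets gave 0.04 and 0.14. In the G1/S switch, the E cyclins Ccne1 and Ccne2 had 0.03 ± 0.13 and -0.35 ± 0.14 (adjusted p = 0.91 and 0.092), and the factor E2f1 had -0.25 ± 0.14 (adjusted p = 0.23). The second probe set of Ccne2, dimmer than the first, gave 0.04.

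At 120 h, when 2.02% of all genes were called, 1 of the 33 was (3.03%), in the direction in which 1.51% of all genes were. Mcm10 ran from 4.85 to 5.28 in vehicle rats (median 5.10) and from 4.41 to 4.90 in ANIT rats (median 4.66). A single ANIT rat, replicate 6 at 4.90, lay above the lowest vehicle rat. Mcm10 fell by 0.47 ± 0.11 (adjusted p = 0.019), a difference close to the one at 24 h, and the difference between the effects at both times was -0.07 ± 0.15 (adjusted p = 0.77, interval from -0.38 to 0.24). The call at 120 h was lost in 3 of 24 removals of 1 rat (replicates 2 and 3 of vehicle and 4 of ANIT at 120 h, adjusted p up to 0.059). It was kept without the narrow arrays.

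The other 32 genes were not called at 120 h. The median difference of the 33 was 0.00, against -0.01 over all genes, and 16 of 33 values were below 0 (51.5% of all genes). No gene of the 33 had groups that lay apart, beside 0.558% of all genes wholly above and 1.58% wholly below. The loader subunit Rfc3 ran from 4.68 to 5.44 in vehicle and from 4.33 to 4.74 in ANIT rats (-0.42 ± 0.13, adjusted p = 0.11). Prim1 had the largest value, -0.57 ± 0.30 (1.48-fold, adjusted p = 0.40), and was the only gene whose 95% interval passed 2-fold, from -1.18 to 0.05. Tk1 had 0.36 ± 0.21, Rpa2 0.27 ± 0.15, E2f1 0.23 ± 0.14 and Pcna -0.16 ± 0.12, all with ranges that overlapped between groups. The Tk1 value is that of its brightest probe set, and its other 2 gave 0.07 and -0.05. Without the narrow arrays the value of Prim1 turned to 0.04, that of Tk1 to -0.10 and that of Pcna to 0.09, none called.

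The ANIT effect at 120 h was compared with that at 24 h by an interaction contrast, in which 14.3% of all genes were called and 2 of the 33 (6.06%), both in the positive direction, as 3.33% of all genes were. The Uhrf1 effect differed by 0.68 ± 0.18 (adjusted p = 0.012), from -0.54 at 24 h to 0.14 at 120 h. The Mcm2 effect differed by 0.57 ± 0.18 (adjusted p = 0.040), from -0.42 to 0.14. The vehicle means also differed between times: at 24 h Uhrf1 averaged 4.64 with vehicle and 4.11 with ANIT, and at 120 h 4.25 and 4.39, and Mcm2 averaged 5.91 and 5.49 at 24 h, and 5.60 and 5.74 at 120 h. The Uhrf1 call was kept in 24 of 24 removals of 1 rat and the Mcm2 call in 13 of 24. The Mcm2 call was lost without each of replicates 3 to 5 of vehicle and 1, 3 and 6 of ANIT at 24 h, and without each of replicates 3 and 5 of vehicle and 4 to 6 of ANIT at 120 h (adjusted p up to 0.079). Without replicate 1 of vehicle at 24 h, 5 of the 33 were called, among them Mcm5, Chaf1b and Prim1, beside 23.4% of all genes. Without replicate 4 of ANIT at 24 h 4 were, among them Mcm5 and Ccne2, beside 16% of all genes. Without all 6 narrow arrays, Mcm2 stood at 0.15 and Uhrf1 at 0.35 (adjusted p = 0.76 and 0.25), and Rpa1 (0.82) and Fen1 (-0.63) were called in their place (adjusted p = 0.044 and 0.040). With all arrays the smallest p among genes not called belonged to Mcm5 (0.51 ± 0.19), Ccne2 (0.52 ± 0.20) and Fen1 (-0.43 ± 0.17), with adjusted p = 0.069, 0.083 and 0.088. The second probe set of Ccne2 gave -0.06. The largest value was that of Prim1, -0.90 ± 0.42 (adjusted p = 0.15), but it turned to 0.18 without the narrow arrays, where Mcm5 stood at 0.08 and Ccne2 at 0.30. The call on Mcm2 was also lost with a common median of the arrays (0.46, adjusted p = 0.052), with the spiked control level described below as a covariate (0.31, adjusted p = 0.17) and with array SD as a covariate (0.27, adjusted p = 0.19).

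By sign alone, 13 of the 33 genes were below vehicle at 24 h and above it at 120 h (39.4%, against 30.1% of all genes), 9 were below it at both times (27.3%, against 19.3%), 4 above it at both (12.1%, against 18.4%), and 7 above and then below (21.2%, against 32.3%). The 13 were Mcm2, Mcm5, Cdt1, Cdc45, Pole2, Rpa1, Lig1, Tyms, Tk1, Chaf1b, Uhrf1, Ccne2 and E2f1. Of these, 2 were called at 24 h (Mcm2 and Uhrf1) and 0 at 120 h. Without the narrow arrays, Mcm2 (-0.13), Mcm5 (-0.02), Cdt1 (-0.03), Cdc45 (-0.15) and Pole2 (-0.003) were below vehicle at 120 h. Lig1 (-0.07), Tk1 (-0.10), Chaf1b (-0.09) and Ccne2 (-0.07) were too, so the signs of all these turned. Rpa1, Tyms, Uhrf1 and E2f1 stayed above it. With all arrays, the second probe sets of Lig1 and Ccne2 gave -0.21 and -0.02 at 120 h.

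Between the vehicle groups, 0 of the 33 genes were called, beside 1 of all genes (0.00744%) by limma, and at an unadjusted p under 0.05 there were 5 of the 33, all lower at 120 h, while 12.2% of all genes were past it in either direction and 3.49% in the lower one. Mcm2 was nevertheless lower in every vehicle rat at 120 h (5.35 to 5.70) than in every one at 24 h (5.74 to 6.13), a difference of -0.31 ± 0.13 (adjusted p = 0.36). Groups lay wholly apart in that direction for 0.186% of all genes. Uhrf1 had -0.39 ± 0.13 (adjusted p = 0.26), and without replicate 1 of vehicle at 24 h it was called, beside 1.3% of all genes.

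Within the groups that held narrow arrays, rats split by the width of their array. In vehicle at 24 h the 3 narrow arrays lay wholly above the other 3 for 6 of the 33 genes and wholly below for 4, together 30.3%, beside 10.4% and 21.6% of all genes, together 32%. In ANIT at 120 h they lay above for 6 and below for 10, together 48.5%, beside 17.5% and 35.3%, together 52.7%. The split was the same in both groups for 7 of the 33, beside 20.9% of all genes: Mcm2, Mcm5 and Tk1 were higher on narrow arrays (6.38% of all genes) and Mcm7, Prim1, Pold2 and Rrm1 lower (14.6%). Tk1 stood at 7.17 to 7.34 on the narrow and 6.29 to 6.49 on the other arrays of ANIT at 120 h, a gap of 0.91. Prim1 stood at 4.83 to 5.12 on the narrow and 6.11 to 6.25 on the other arrays, a gap of -1.21. Both gaps exceed every ANIT difference of the 33 at 24 h and at 120 h. Mcm10 had mixed arrays in both groups, with gaps of -0.01 and 0.07. Without the narrow arrays the values at 24 h turned from 0.33 to -0.14 for Prim1, from 0.18 to -0.21 for Mcm7 and from -0.20 to 0.19 for Tk1, none of them called.

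**Figure D3:**
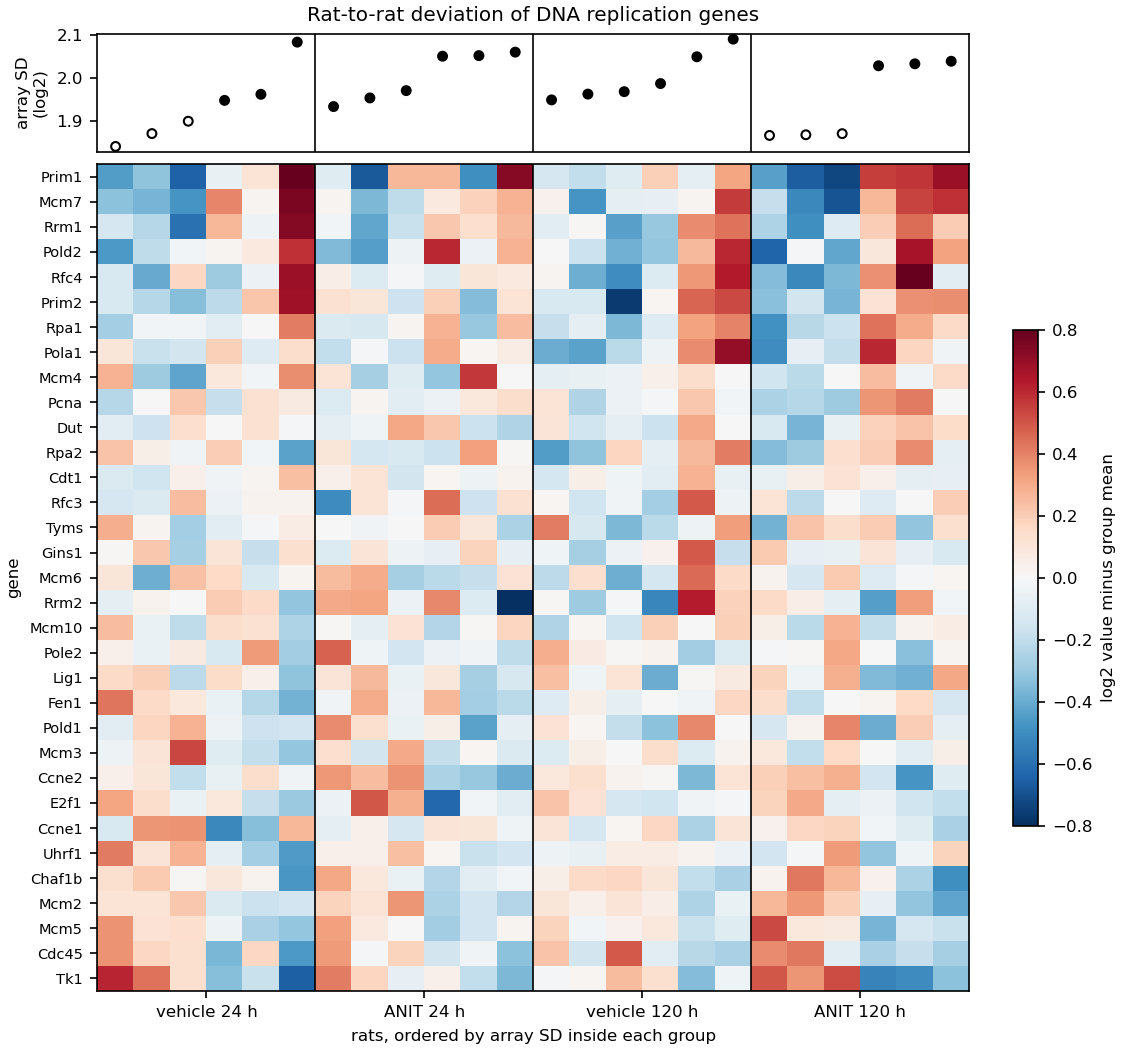
Deviation of each rat from its group mean (log2, colours saturating at 0.8 in either direction) for the 33 genes, with the rats of each group ordered by array SD, which is plotted above (log2, open circles are the narrow arrays). Genes are ordered by their gap between narrow and other arrays, averaged over both groups that hold narrow arrays. In vehicle at 24 h and ANIT at 120 h, Prim1 and Mcm7 at the top turn from blue to red with increasing array SD, and Tk1 at the bottom and Mcm5 near it turn the other way.

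The level of 9 spiked hybridisation controls, which ran from 10.5 to 11.7 over the arrays, was therefore also put in the model as a covariate. With it, 6 of the 33 genes were called at 24 h: Uhrf1 (-0.40 ± 0.11, adjusted p = 0.011), Mcm10 (-0.38 ± 0.11, adjusted p = 0.017), Rpa1 (-0.62 ± 0.11, adjusted p = 0.00025), Pold2 (-0.42 ± 0.14, adjusted p = 0.036) and Dut (-0.39 ± 0.11, adjusted p = 0.013) lower and Fen1 (0.40 ± 0.12, adjusted p = 0.017) higher. Mcm2 and Mcm4 were then at -0.24 and 0.31 and were not called (adjusted p = 0.089 and 0.12). In this fit 20.1% of all genes were called, 1293 higher and 1407 lower, in place of 1738 and 713, and the median of the 33 was -0.15 against 0.00. With the beta-actin ratio as the covariate, 6.75% of all genes and 1 of the 33 were called at 24 h, namely Rpa1 (-0.75 ± 0.21, adjusted p = 0.029), while Uhrf1 and Mcm10 kept values of -0.55 and -0.47 (adjusted p = 0.085 for both). The beta-actin ratio did not overlap between ANIT and vehicle rats at 24 h. A fit with it, here or below, therefore cannot tell RNA quality from ANIT at that time. Its standard errors were also larger, 0.19 in place of 0.13 for Uhrf1 and 0.16 in place of 0.11 for Mcm10. The part of array width and of RNA quality in the reported differences was not tested.

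**Figure D4:**
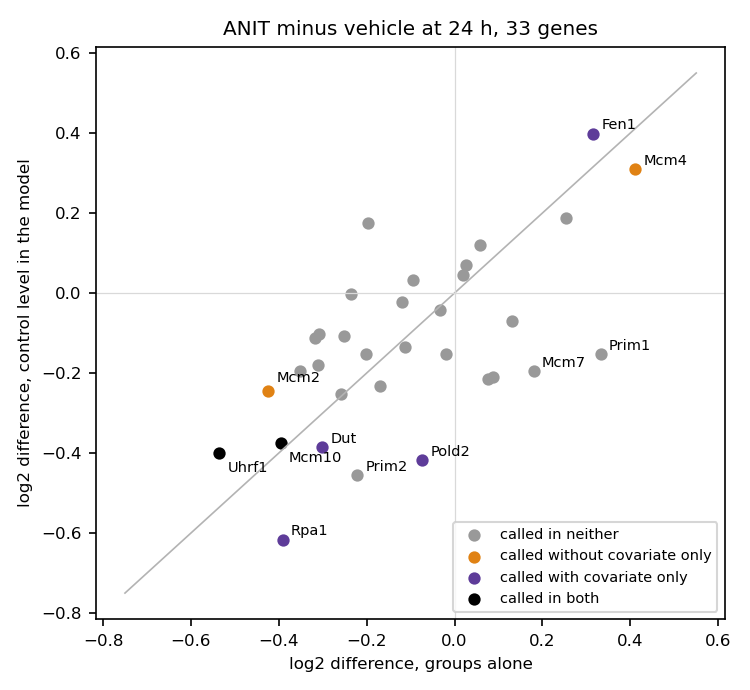
Difference between ANIT and vehicle at 24 h (log2) for the 33 genes from the groups alone (horizontal axis) and with the spiked control level in the model (vertical axis), with the line of equality in grey. Black marks genes called in both fits, orange those called without the covariate only, purple those called with it only. Mcm10 and Uhrf1 are black, Mcm2 and Mcm4 orange, and Rpa1, Pold2, Dut and Fen1 purple.

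The largest differences in the pathway at 24 h were outside the 33 genes. Of 108 other genes of licensing, forks, nucleotide supply, chromatin copying and the G1/S switch, 89 were measured, and at 24 h 14 rose and 5 fell (21.3%, beside 18.2% of all genes), with a median difference of -0.01. In nucleotide supply, 4 of 16 measured genes rose and 1 fell (31.2%). The 1 that fell was Shmt1, a name picked after its value was seen. Ctps1, the CTP synthase, ran from 6.01 to 7.35 in vehicle and from 7.93 to 8.36 in ANIT rats, so every ANIT rat lay above every vehicle rat. It rose by 1.26 ± 0.18 (2.40-fold, adjusted p = 1.7e-05). Cad, which carries out the first steps of pyrimidine synthesis, rose by 0.999 ± 0.19, the nucleoside diphosphate kinase Nme1 by 0.89 ± 0.15, and the mitochondrial serine hydroxymethyltransferase Shmt2 by 0.82 ± 0.16 (adjusted p = 0.00052, 9e-05 and 0.00042). These make ribonucleotide precursors and one-carbon units also in cells that are not copying DNA.

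At the fork, 2 of 25 other genes rose and 1 fell at 24 h (12%, beside 18.2% of all genes). Rfc1, the large subunit of the clamp loader, ran from 9.17 to 9.54 in vehicle and from 8.32 to 8.95 in ANIT rats, with no overlap, and fell by 0.82 ± 0.10 (adjusted p = 1.4e-06), while Rfc3 and Rfc4 of the same loader were not called. Rpa3, the small subunit of the single strand binding complex, ran from 7.54 to 8.20 in vehicle and from 8.58 to 9.27 in ANIT rats and rose by 1.04 ± 0.22 (adjusted p = 0.0016), beside the values of Rpa1 and Rpa2 given above. The topoisomerase Top1 rose by 0.26 ± 0.09 (adjusted p = 0.035). In licensing, the origin subunit Orc2, the Cdt1 inhibitor Gmnn and the MCM binding protein Mcmbp rose (0.39, 0.34 and 0.58) among 15 measured (20%). In chromatin copying 1 of 9 fell (11.1%), namely Hells, a chromatin remodeller needed for DNA methylation. Hells ran from 6.03 to 7.32 in vehicle and from 4.59 to 6.08 in ANIT rats. It fell by 1.32 ± 0.24 (adjusted p = 0.0003), while Dnmt1 had 0.17 ± 0.13 (adjusted p = 0.42).

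Among 13 G1/S cyclins, kinases and E2F partners 4 rose at 24 h and 0 fell (30.8%, beside 18.2% of all genes). Tfdp1, the DNA binding partner of E2F, rose by 0.55 ± 0.09 (adjusted p = 4.1e-05) with every ANIT rat above every vehicle rat, Skp2, a ubiquitin ligase subunit, rose by 0.42 ± 0.10, and Myc by 0.77 ± 0.26 (adjusted p = 0.0039 and 0.039). The fourth was E2f6, a name picked after its value was seen. Skp2 was dim, with group means from 3.64 to 4.06. Cyclin D1 (Ccnd1) had -0.50 ± 0.25 and cyclin A2 (Ccna2) -0.35 ± 0.22, neither called. Of 11 inhibitors of the G1/S step, 27.3% were called at 24 h. The p53 target Cdkn1a rose by 0.85 ± 0.23 (adjusted p = 0.011), and Cdkn1c and Rbl2 fell by 0.53 ± 0.16 and 0.43 ± 0.14 (adjusted p = 0.024 and 0.032). At 120 h, 1 of the 89 other genes was called (1.12%, beside 2.02% of all genes): Cdkn1c rose by 0.74 ± 0.16 (adjusted p = 0.014), from a range of 4.11 to 4.70 in vehicle to one of 4.72 to 5.70 in ANIT rats. Every ANIT rat lay below every vehicle rat at 120 h for Rfc1 (-0.27 ± 0.10, adjusted p = 0.19) and Ccnd1 (-0.90 ± 0.25, adjusted p = 0.063), which were not called. Of all genes, 1.58% lay wholly below in this way. The effect of ANIT on Cdkn1c differed between times by 1.27 ± 0.23, and that on Cdkn1a by -1.60 ± 0.33.

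Of the calls at 24 h, those on Ctps1, Cad, Nme1, Rfc1, Hells and Tfdp1 held in all 9 alternative settings and in 24 of 24 removals of 1 rat each. The calls on Rpa3 and Shmt2 were lost when the beta-actin ratio was a covariate (adjusted p = 0.22 and 0.29), that on Skp2 there (adjusted p = 0.10), that on Cdkn1a there and without the narrow arrays (adjusted p = 0.75 and 0.12), and that on Myc in 4 of 8 settings. Those on Orc2, Gmnn, Mcmbp and Top1 were each lost in 5 or 6 of 9 settings, that on E2f6 in 6 of 9, that on Shmt1 in 3 of 9, that on Cdkn1c in 2 of 8 and that on Rbl2 in 1 of 9. With 1 rat left out at a time, calls were kept in 13 of 24 cases for Mcmbp, 17 for Top1 and Rbl2, 18 for Gmnn and Myc, 19 for Shmt1, 8 for E2f6, 22 for Cdkn1c and 23 for Orc2. The call on Cdkn1c at 120 h was lost under quantile normalization and with a common median (adjusted p up to 0.067), and kept in 24 of 24 removals.

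**Figure D5:**
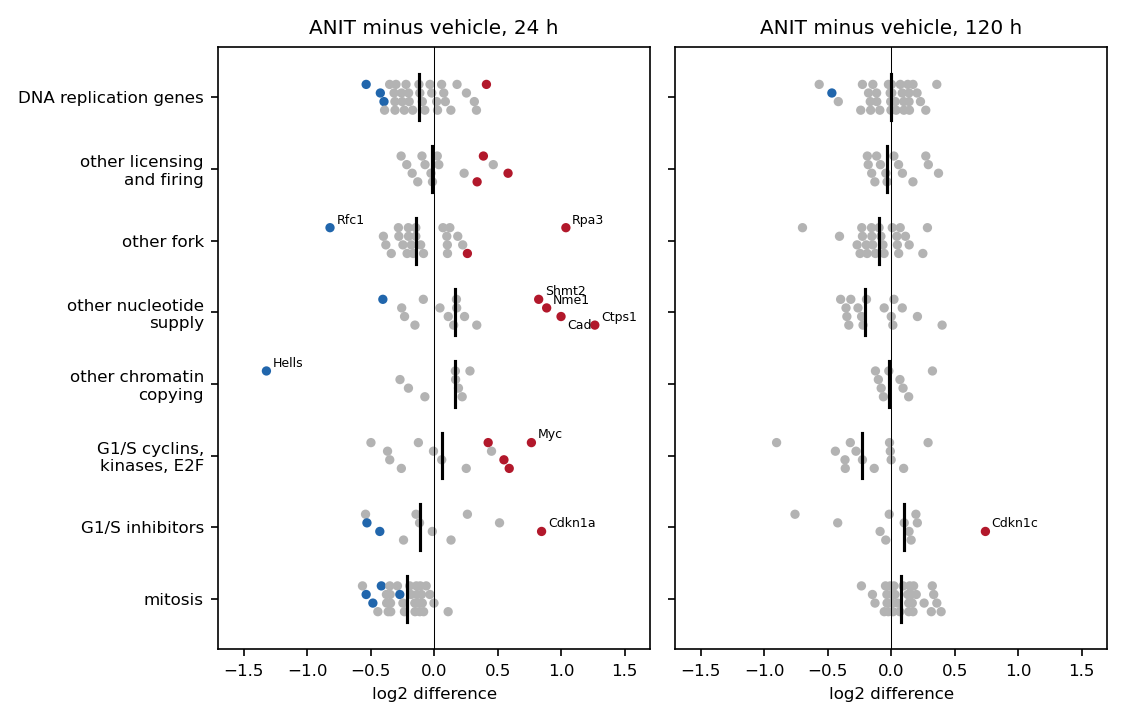
Difference in log2 value between ANIT and vehicle at 24 h (left) and 120 h (right) for the 33 genes, for 89 other genes of the pathway in 6 lists and for 32 mitosis genes. Each point is 1 gene, red and blue mark genes called higher and lower, grey those not called, black bars are the medians of the lists, and names are given for called genes beyond 0.7 among the other lists. Ctps1, Cad, Nme1, Shmt2 and Rpa3 lie to the right and Hells and Rfc1 to the left at 24 h, and Cdkn1c alone is coloured outside the 33 genes at 120 h.

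Genes of mitosis, which follow DNA replication in a cycling cell, also lay mostly below vehicle at 24 h. Of 32 measured, 0 rose and 4 fell (Hmmr, Ect2, Ccnb1 and Anln), 31 values were below 0 (49.3% of all genes), and the median was -0.21. The called share, 12.5%, was below the 18.2% of all genes, and the share called lower was above their 5.31%. Leaving out the narrow arrays ended all 4 calls (adjusted p = 0.14 to 0.39), and so did the beta-actin ratio as a covariate (0.16 to 0.64). They were kept in 4 of 8, 5 of 9, 2 of 9 and 2 of 8 settings, and in 24, 18, 16 and 10 of 24 removals of 1 rat, in the order named. At 120 h 0 were called by limma (4 at an unadjusted p under 0.05, all higher), the median was 0.08 and 23 were above 0. The proliferation marker Mki67 had -0.57 ± 0.44 at 24 h and 0.39 ± 0.44 at 120 h, and Top2a had -0.44 ± 0.22 and -0.15 ± 0.22, none of them called.

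Markers of other cell types moved in the same comparisons, and their part in the differences of the 33 genes was not tested. Of 12 measured lymphocyte markers, cells that can cycle in the liver, 11 were below 0 at 24 h, beside 49.3% of all genes. Of the 12, 2 were called lower, Cd8a (-0.56 ± 0.14, adjusted p = 0.0069) and Cd79b (-0.32 ± 0.10, adjusted p = 0.030). This is 16.7%, beside 18.2% of all genes in either direction and 5.31% in the lower one. The mean level of the 12 ran from 4.74 to 4.88 in vehicle and from 4.43 to 4.69 in ANIT rats, with no overlap. At 120 h 10 of the 12 were above 0, while 51.5% of all genes were below it. By limma 0 of the 12 were called (2 at an unadjusted p under 0.05), beside 2.02% of all genes. Of 8 neutrophil markers 2 rose at 24 h, S100a8 by 1.82 ± 0.38 and S100a9 by 0.87 ± 0.22. This is 25%, beside 18.2% of all genes in either direction and 12.9% in the higher one. The mean level of the 8 ran from 4.82 to 5.14 in vehicle and from 5.07 to 5.46 in ANIT rats. The 8 neutrophil markers were split, 4 above and 4 below 0, with a median of 0.01. Of 8 endothelial markers Lyve1 rose and Kdr and Stab2 fell at 24 h (0.54, -0.35 and -0.50). Of 9 macrophage markers Cd163 and Lyz2 rose (0.38 and 0.54), and of 10 stellate cell and fibroblast markers Lrat fell (-1.25 ± 0.17). The called shares of these lists were 37.5%, 22.2% and 10%, beside 18.2% of all genes. The mean levels of these 3 lists overlapped between groups at 24 h. Of the 9 hepatocyte markers Hnf4a and Tat rose (0.31 and 0.74), which is 22.2%, beside 18.2% of all genes. Of 5 erythroid genes 0 were called by limma, at an unadjusted p under 0.05 as well. At 120 h, 8 of 8 bile duct markers were above 0 and 2 were called (25%, beside 2.02% of all genes). These were Krt19 (0.73 ± 0.12, adjusted p = 0.0015) and Cftr (0.49, adjusted p = 0.037). Mean levels of the 8 ran from 4.44 to 4.63 in vehicle and from 4.71 to 4.92 in ANIT rats. At that time 1 macrophage marker was called (11.1%, beside 2.02% of all genes), Cd163 (0.43 ± 0.10, adjusted p = 0.024). All measured markers of these lists gave a signal, as every probe set of this array does, so none is at 0.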

How the data were processed

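Liver RNA of 24 rats was measured on 24 arrays, and the submitters' processing notes name RMA and Partek, with no versions or settings given in the sources used here. The authors deposited log2 values for 31139 probe sets, which were used as deposited. Probe sets were named from the platform annotation updated through Entrez identifiers (19068 name 1 gene, 573 several, 11498 none). A cell-means model of 4 groups was fitted to 13438 genes with limma 3.58.1 (lmFit, eBayes) in R 4.3.3, with Benjamini-Hochberg adjustment over all genes. Replicates were numbered in accession order, which pairs no rats. The members and gene lists were chosen with earlier results of these data known. Of the other lists, the text names up to 4 genes per list by smallest p, and Ccna2, Ccnd1, Cdkn1a, Gmnn, Mki67, Top2a and Dnmt1. In simulated data of 13438 genes, log2 changes of 0.5 and 1 were planted in 100 genes each, with noise independent between genes. In the run for 24 h, 51% and 93% of them were called, and in the run for 120 h 49% and 85%. Both runs had the same setting apart from the group changed. Fewer genes changed in them than were called at 24 h, and real genes split by array width. These shares therefore may not hold for the real comparisons. Alternatives were quantile normalization, a common median, 3 covariates (spiked control level, beta-actin ratio, and array SD, the last added after seeing the data), all probe sets of a gene averaged, a filter at log2 5, only the groups compared, no narrow arrays, and leaving out each rat. The filter leaves out dim genes, among them Skp2, Cdkn1c, Myc, Hmmr and Anln with means under log2 5, so these have 8 settings at 24 h and not 9. The difference has no fit with only the groups compared, so its number of settings is smaller again. The number of arrays limits the precision. Python 3.11.15 with matplotlib 3.10.9 drew the figures.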

Additional observations from a re-analysis of the deposited data

Results flagged for a closer look

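Among the 132 sets of 6 rats (33 genes in 4 groups), 3 held a rat far from the other 5 by Dixon's criterion (2.27%), where chance gives about 1 in 20. Pole2 was at 4.90 in replicate 4 of ANIT at 24 h, with the nearest rat at 4.40. Chaf1b was at 4.95 in replicate 1 of vehicle at 24 h, with the nearest at 5.43. Ccne2 was at 6.33 in replicate 5 of vehicle at 120 h, with the nearest at 6.70.

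The effect of ANIT differed between 120 h and 24 h by the interaction contrast (limma, adjusted p under 0.05) for 2 of the 33 genes, Mcm2 (0.57) and Uhrf1 (0.68), beside 14.3% of all genes. Most genes named outside the 33 were picked by smallest p at 24 h or 120 h. The contrast is built from those same differences, so calls on these genes give no independent support. Of the named genes outside the 33, it also differed for Hells (1.24), Rfc1 (0.55), Topbp1 (0.55), Cdkn1c (1.27), Ect2 (0.82), Krt19 (0.88), Cftr (0.59), Cd79b (0.52), Cd8b (0.44), Cps1 (0.38), Adgre1 (0.74), Col3a1 (0.74) and Lrat (0.87), where the effect was more positive at 120 h. It was more negative at 120 h for Ctps1 (-1.62), Cad (-1.32), Nme1 (-0.94), Shmt2 (-1.22), Rpa3 (-1.44), Tfdp1 (-0.45), Skp2 (-0.43), Myc (-1.13), E2f6 (-0.87), Lyve1 (-0.67), Tat (-1.03) and Cdkn1a (-1.60). Of these calls, those on Hells, Ctps1 and Cdkn1c were kept in every alternative setting and in 24 of 24 removals of 1 rat. Those on E2f6, Myc and Skp2 were kept in 3 settings each (of 8, 7 and 7) and in 8, 13 and 9 removals, and E2f6 stood at -0.17 without the narrow arrays. The calls on Cad, Nme1, Rpa3, Tfdp1, Topbp1 and Ect2 were lost without the narrow arrays, those on Nme1, Rpa3, Shmt2, Cdkn1a, Tfdp1, Topbp1 and Ect2 with the beta-actin ratio as a covariate, those on Rfc1 and Topbp1 with a common median, and that on Tfdp1 with quantile normalization, and each of these was kept in 24 removals. For the cell type markers the alternative settings were not run. In the pathway and mitosis lists, the contrast also called genes not named by that rule: Birc5 (0.64), Ncaph (0.70), Nusap1 (0.69) and Cdc25a (-0.89). These were kept in 5, 6, 6 and 4 of 8 settings.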

How the results depend on the processing

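Of the 33 genes, 4, 1, 2 and 0 were called at 24 h, at 120 h, for the difference and between the vehicle groups. The 24 h count was 1 with the beta-actin ratio as covariate, 2 with the filter at log2 5 (21 of the 33 tested), 2 without the narrow arrays and 8 with array SD as covariate, an alternative chosen after seeing the data. In these 4 fits 6.75%, 26.4%, 11.6% and 21.6% of all genes tested were called, beside 18.2% in the main fit. The filter at log2 5 removes Mcm10 (mean 4.8) and Uhrf1 (mean 4.35). The 120 h count was 0 with that filter and 0 with only the groups compared (Mcm10 at an adjusted p of 0.055), beside 3.13% and 1.31% of all genes tested. The count for the difference was 0 with the beta-actin ratio and 1 with the filter, beside 3.26% and 21.4% of all genes tested. Counts near 2 elsewhere hide exchanges: Mcm2 was lost with a common median, the spiked control level and array SD, and Fen1 or Rpa1 entered. Leaving out each rat gave 2 to 7, 0 to 1, 1 to 5 and 0 to 1 calls in the order above. Without replicate 1 of vehicle at 24 h, 26.3% of all genes were called at 24 h and 23.4% for the difference. At 24 h the genes called under quantile normalization were Dut, Mcm10, Mcm2 and Uhrf1, so Mcm4 was lost. No called value among the 33 changed sign in any alternative. Over all genes, 2451 were called at 24 h, 907 with the beta-actin ratio and 1554 without the narrow arrays, which leaves fewer samples. At 120 h 272 were called, 501 with quantile normalization, 143 with a common median, 674 with the spiked control level, 652 with array SD and 176 with only the groups compared. The shares called higher at 24 h went from 1738 of 2451 to 1565 of 2872 with quantile normalization and 1293 of 2700 with the spiked control level. At 120 h they went from 69 of 272 to 205 of 501 with quantile normalization, 142 of 194 without the narrow arrays and 345 of 652 with array SD. For the difference they went from 448 of 1924 to 516 of 852 without the narrow arrays. A common median moved the median of all genes for the difference from -0.02 to -0.13, and that of the 33 genes from 0.04 to -0.07. The cause of these changes was not tested. No paired analysis was possible because the labels give no number that pairs rats across groups.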
